A study of Mus musculus with 3 samples.

Results

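The 10 genes described here, *Cd36*, *Lpl*, *Fabp3*, *Fabp4*, *Fabp5*, *Acsl1*, *Dgat1*, *Plin2*, *Cpt1a* and *Pparg*, take part in the uptake, storage and oxidation of fatty acids. They were chosen by name from the 22911 mouse genes that could be named on the array, and 16 probes carried an accession of one of them. Their mRNA was compared between Colon26, a murine colon adenocarcinoma line derived from BALB/c mice, and 2 of its sublines, the high-metastatic LuM1 and the low-metastatic NM11. The strain is given as BALB/c and the sex as female for all lines, and all were kept in RPMI1640 with 10% FBS and antibiotics on culture plates, and the labels name no treatment or engineered allele in any of them. After 3 days in culture, 0.1 µg of total RNA per line was labelled with Cy3 and hybridized to a single-colour array of its own, with all 3 arrays on 1 slide. Since each line was 1 culture on 1 array, no difference has a replicate check, no test was run, and a difference between lines cannot be told apart from one between single cultures.

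Cells take up long-chain fatty acids from lipoproteins and from albumin. Lipoprotein lipase frees them from triglycerides, the scavenger receptor CD36 helps them across the membrane, and the small fatty acid-binding proteins (FABPs) carry them through the cytosol. After coupling to coenzyme A they are either esterified and stored in lipid droplets or shuttled into mitochondria for β-oxidation. PPARγ, a nuclear receptor activated by fatty acids, switches on many genes of uptake and storage and is best known from adipocytes and macrophages, as is the binding protein encoded by *Fabp4*.

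Values are probe signals (arbitrary units on a linear scale) after each array was scaled to a common 75th percentile. The error given with a signal (±) is the scanner software's own error for that spot, which does not include the spread between cultures. A probe that the software did not call well above background has no level on that array and enters a ratio only as a bound, computed from the lowest signal that was called well above background (Colon26 26.4, LuM1 20.1, NM11 19.6). A signal printed for such a probe gives no level. Where the spot was not even significantly above background, the value is the software's error in place of a signal. Signals of different probes depend on the probe and are not compared with each other. Sums over marker genes, given below, are led by their brightest probes and are no measure of how much of a cell type is present. The software called 49.9% to 53.8% of the 56605 probes well above background and none saturated. A ratio of at least 2-fold is called higher or lower.

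*Fabp4* was the member that separated the lines. It was 122-fold higher in LuM1 cells than in Colon26 cells and 13.0-fold higher than in NM11 cells. No other member passed 2-fold in any of the 3 comparisons. *Dgat1* and *Pparg* were brightest in LuM1 cells but stayed just under 2-fold, *Acsl1* and *Plin2* were brighter in both sublines than in Colon26 cells, and *Cpt1a* was dimmer in both. *Lpl* and *Fabp5* were not well above background on any array. All 3 lines thus had measured signals for activation (*Acsl1*), storage (*Dgat1*, *Plin2*), oxidation (*Cpt1a*) and the nuclear receptor (*Pparg*), whereas of the 2 uptake genes only *Cd36* was measured, in Colon26 cells.

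In numbers, 8 of the 10 members gave a ratio or a bound between LuM1 and Colon26 cells, of which 1 was called higher and 0 lower, beside 12.9% higher and 11.7% lower among the 14350 named genes that gave one. Between LuM1 and NM11 cells 7 members gave a value, with 1 higher and 0 lower, beside 11.1% and 8.5% of 14412 genes. Between NM11 and Colon26 cells 8 did, with 1 higher and 0 lower, beside 8.17% and 7.74% of 14107 genes. The called member was *Fabp4* each time, and these shares do not set the group apart from other genes. Against both other lines at once, 1 of 8 members was higher in LuM1 cells and 0 were lower, beside 7.33% and 4.03% of 14826 genes. The median log2 ratio of the 7 members measured on both arrays was 0.68 for LuM1 over Colon26, beside -0.13 for all 12394 genes measured there. It was 0.60 over 6 members for LuM1 over NM11, beside -0.11, and 0.43 over 6 members for NM11 over Colon26, beside -0.02. The members were chosen with earlier results of these data known, so these medians are given as a description only.

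**Figure D1:**
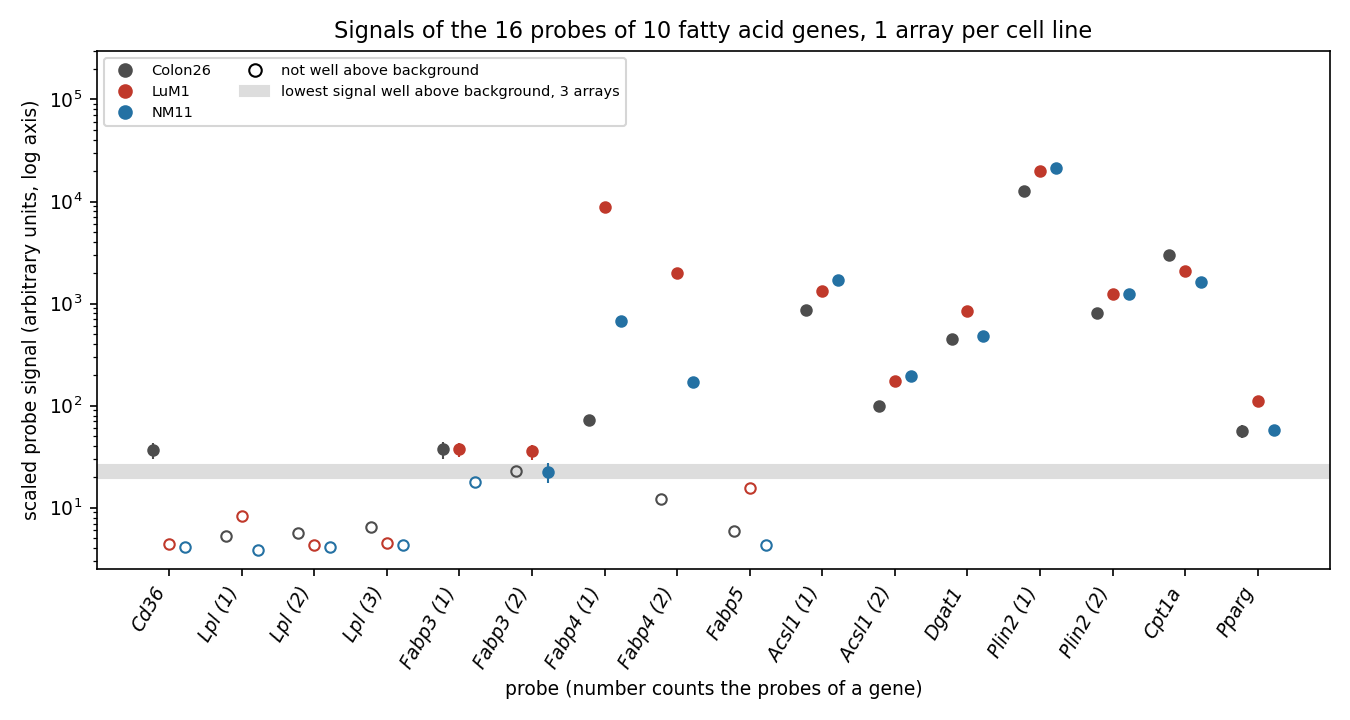
Scaled signal (arbitrary units, log axis) of each of the 16 probes of the 10 genes on the Colon26, LuM1 and NM11 arrays, with 1 point per array, bars for the scanner error and open circles for probes not well above background. Both *Fabp4* probes were brightest in LuM1 cells and brighter in NM11 than in Colon26 cells, and all 3 *Lpl* probes and the *Fabp5* probe lay under the lowest signals called well above background (grey band).

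Uptake genes were dim. *Cd36*, the scavenger receptor that takes up fatty acids and oxidized LDL, has 1 named probe (A_51_P375146). Its signal was 36.6 ± 6.87 in Colon26 cells. In LuM1 and NM11 cells its spots were not significantly above background, and their values, 4.37 and 4.15, are the software's error. Relative to Colon26 cells *Cd36* was therefore at least 1.82-fold lower in LuM1 cells, and in NM11 cells at least 1.87-fold lower, bounds that fell short of 2-fold. The Colon26 array holds clusters of spots that are bright on that array alone, and the surroundings of single spots were examined after their values were seen. Around the *Cd36* spot, 1 of 117 spots within 5 rows and columns was well above background on the Colon26 array alone, or 0.855%, beside 1.89% over the array. *Lpl*, the lipoprotein lipase, had values from 3.89 to 8.25 over its 3 probes and the 3 arrays. None was well above background, and most are the software's error. The software called 1 of these probes significantly, but not well, above background in LuM1 cells (8.25) and another in Colon26 cells, so no level and no ratio is given for *Lpl*.

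The 3 genes of fatty acid-binding proteins behaved differently from each other. The *Fabp4* probe with the higher mean signal (A_51_P336833) read 72.1 ± 9.25 in Colon26 cells, 8787 ± 879 in LuM1 cells and 678 ± 67.9 in NM11 cells. LuM1 cells were highest, NM11 cells were between, and Colon26 cells were lowest, with gaps far wider than the scanner error. On the log2 scale the ratio was 6.93 ± 0.23 for LuM1 over Colon26, 3.70 ± 0.20 for LuM1 over NM11 and 3.23 ± 0.23 for NM11 over Colon26, where it was 9.40-fold higher in NM11 cells. The second *Fabp4* probe (A_52_P564544) read 12.1 in Colon26 cells, not well above background, 1993 ± 199 for LuM1 and 169 ± 17.3 for NM11. It gave the same order. Over Colon26 cells, LuM1 cells were at least 75.5-fold higher and NM11 cells at least 6.40-fold higher, and LuM1 over NM11 was 11.8-fold.

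The size of the *Fabp4* ratio depended on how signals were scaled and background-corrected, while its direction did not. Over 7 other ways of doing so, it ran from 58.0-fold to 166-fold for LuM1 over Colon26, from 11.6-fold to 19.5-fold for LuM1 over NM11 and from 5.01-fold to 9.62-fold for NM11 over Colon26. The lowest values came from normexp background correction with an offset, which draws dim signals together. Among all genes measured on both arrays, 13 of 12394 reached the ratio of *Fabp4* between LuM1 and Colon26 cells, itself included. Between LuM1 and NM11 cells it was 78 of 12848, and between NM11 and Colon26 cells 89 of 12469. In LuM1 cells *Fabp4* was thus among the genes furthest above the parental line.

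*Fabp3*, which encodes the binding protein known from heart and muscle, was near the detection limit, and its 2 probes were well above background on different sets of arrays. The brighter one (A_55_P2033780) read 37.3 ± 7.19 in Colon26 cells and 37.4 ± 6.11 in LuM1 cells, a log2 ratio of 0.00 ± 0.36 that turned negative under quantile normalization (-0.20) and normexp correction (-0.14). In NM11 cells it read 17.8, not well above background, so that LuM1 cells were at least 1.91-fold above NM11 cells. The other probe (A_55_P1974367) read 23.1 in Colon26 cells, not well above background, 35.6 ± 5.94 for LuM1 and 22.6 ± 4.99 for NM11. By that probe LuM1 cells were at least 1.35-fold above Colon26 cells, and the log2 ratio of LuM1 over NM11 was 0.65 ± 0.40. *Fabp5*, which encodes the epidermal binding protein, has 1 named probe (A_55_P1953387), annotated to a transcript variant. It read 15.5 in LuM1 cells, significantly but not well above background. In Colon26 and NM11 cells it was not significantly above background, and the values there, 5.95 and 4.35, are the software's error. Other *Fabp5* transcripts were not analysed here.

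Fatty acid activation, by contrast, was measured on every array. *Acsl1* encodes a long-chain acyl-CoA synthetase. Its brighter probe read 861.5 ± 86.4 in Colon26 cells, 1321 ± 132 in LuM1 cells and 1697 ± 170 in NM11 cells, which put both sublines above the parental line. The log2 ratio was 0.62 ± 0.20 for LuM1 over Colon26 and 0.98 ± 0.20 for NM11 over Colon26. The second probe read 99.0 ± 11.3, 175 ± 18.0 and 196 ± 20.0 in the same order of lines and gave 0.82 ± 0.22 and 0.98 ± 0.22. Between the sublines the log2 ratio of LuM1 over NM11 was -0.36 ± 0.20 by the brighter probe and -0.16 ± 0.21 by the other, and the first turned positive when arrays were scaled to *Hprt* (0.23) or taken as the authors' processed values (0.05).

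Of the storage genes, *Dgat1* and *Plin2* had different patterns. *Dgat1* encodes an enzyme of the last step of triglyceride synthesis. It read 453 ± 45.7 in Colon26 cells, 850.1 ± 85.1 in LuM1 cells and 481 ± 48.3 in NM11 cells. LuM1 cells stood above the other lines, with log2 ratios of 0.91 ± 0.21 over Colon26 and 0.82 ± 0.20 over NM11, or 1.88-fold and 1.77-fold. NM11 over Colon26 was 0.09 ± 0.21, within the scanner error, and turned negative under *Hprt* scaling (-0.40) and E1A spike-in scaling (-0.24). *Plin2* encodes perilipin 2, which coats lipid droplets in most cell types. Its brighter probe read 12558 ± 1256 in Colon26 cells, 20060 ± 2006 in LuM1 cells and 21538 ± 2154 in NM11 cells. Both sublines were above Colon26 cells, by a log2 ratio of 0.68 ± 0.20 in LuM1 and 0.78 ± 0.20 in NM11. The other probe gave 0.62 ± 0.20 and 0.60 ± 0.20, from signals of 809.5, 1244 and 1229. The log2 ratio of LuM1 over NM11 was -0.10 ± 0.20 by the brighter probe and 0.02 ± 0.20 by the other, and the first was positive under 5 of 7 other scalings or background corrections (0.08 to 0.49).

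*Cpt1a*, which encodes the liver form of carnitine palmitoyltransferase 1 and controls the entry of fatty acids into mitochondria, was brightest in Colon26 cells, alone among the 6 members measured on all 3 arrays. It read 2964 ± 296 in Colon26 cells, 2090.1 ± 209 in LuM1 cells and 1620 ± 162 in NM11 cells. The log2 ratio was -0.50 ± 0.20 for LuM1 over Colon26 and -0.87 ± 0.20 for NM11 over Colon26, or 1.83-fold lower in NM11 cells. The first of these shrank to -0.06 in the authors' processed values and did not change sign. LuM1 over NM11 was 0.37 ± 0.20.

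*Pparg* was dim but measured on every array. Its probe read 56.6 ± 8.05 in Colon26 cells, 110 ± 11.8 in LuM1 cells and 57.4 ± 7.05 in NM11 cells. LuM1 cells were above the other lines, with log2 ratios of 0.96 ± 0.26 over Colon26 and 0.94 ± 0.24 over NM11, or 1.94-fold and 1.92-fold. Both were past 2-fold in the authors' processed values, without scaling and when scaled to *Hprt*, and both fell to 0.53 and 0.52 under normexp correction. NM11 and Colon26 cells could not be separated, with a log2 ratio of 0.02 ± 0.27 that was negative under 3 of 7 other scalings (-0.05 to -0.47). LuM1 cells were highest for *Pparg* and *Dgat1* as for *Fabp4*, but by less than 2-fold.

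**Figure D2:**
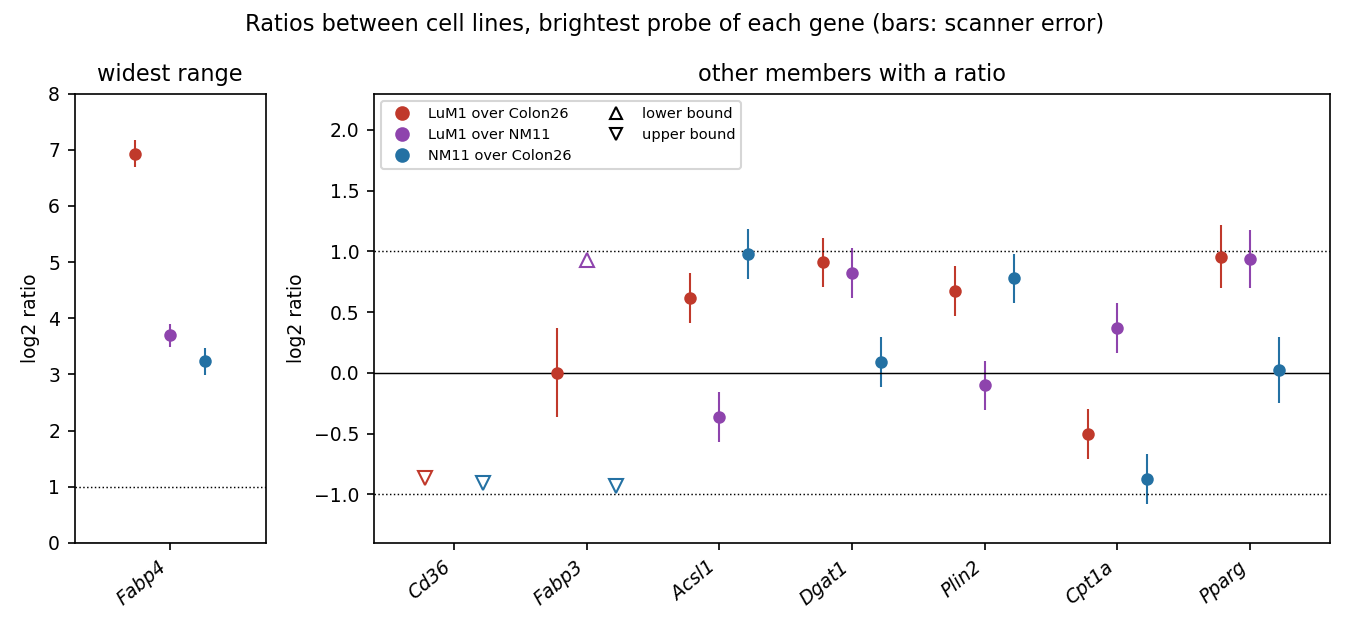
Log2 ratio between lines for the brightest probe of each member that gave one (left, *Fabp4*; right, the others), with bars for the scanner error, triangles for bounds and dotted lines at 2-fold. *Fabp4* passed 2-fold in all 3 comparisons, and the other members lay between -0.93 and 0.98; the ratios of *Fabp3* (LuM1 over Colon26), *Acsl1* and *Plin2* (LuM1 over NM11), and *Dgat1* and *Pparg* (NM11 over Colon26) change sign under some scalings or background corrections.

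**Figure D3:**
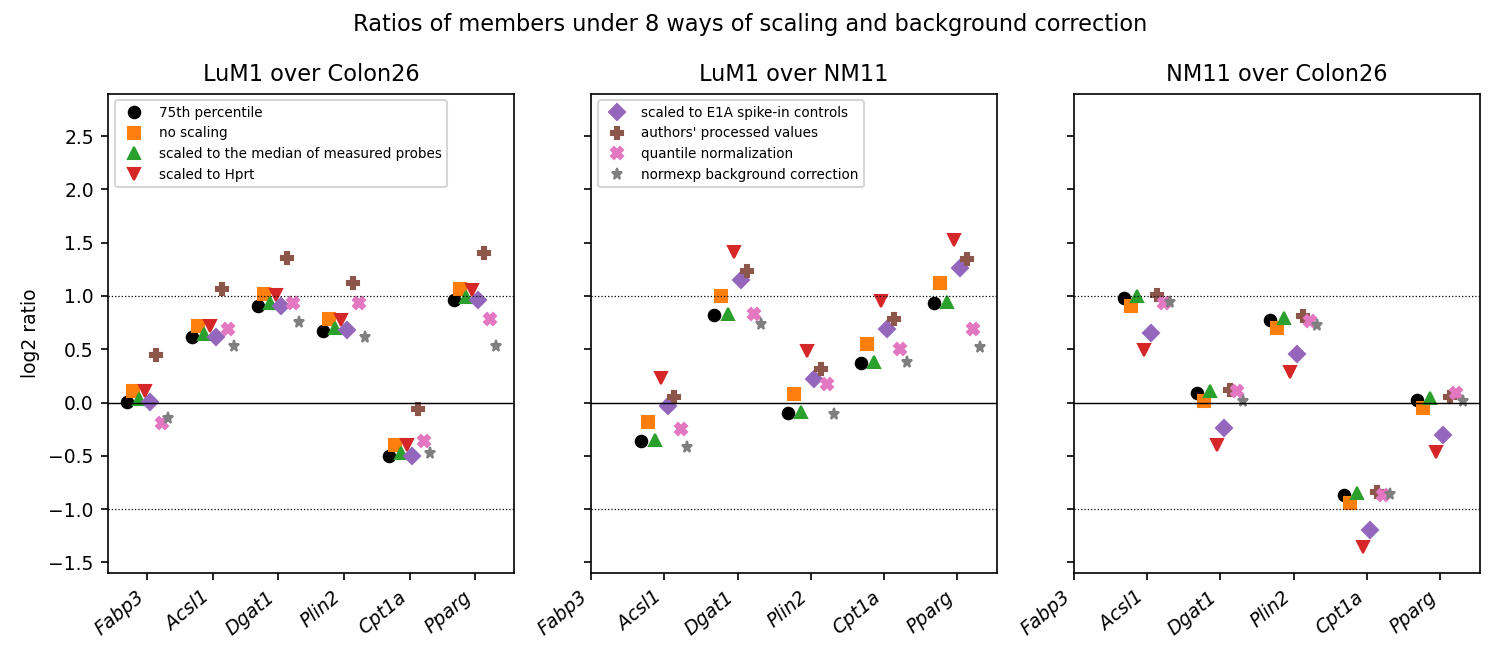
Log2 ratio of 6 members, other than *Fabp4*, with a measured ratio, under the 75th percentile scaling (black) and 7 other scalings or background corrections, in 3 panels for the 3 comparisons, with dotted lines at 2-fold. *Dgat1* and *Pparg* cross 2-fold in LuM1 cells under some of them, and *Cpt1a* crosses it in NM11 over Colon26 under *Hprt* and E1A spike-in scaling. In the authors' processed values *Acsl1* crosses it over Colon26 in both sublines, and *Plin2* in LuM1 cells. Signs flip for *Fabp3*, *Plin2*, *Dgat1* and *Pparg* where their ratio is near 0. The sign also flips for *Acsl1* in LuM1 over NM11, from -0.36 to 0.23 under *Hprt* scaling.

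PPARγ acts as a dimer with a retinoid X receptor on a direct repeat of AGGTCA with 1 base between the repeats. Promoter windows of 250 bases before to 50 bases after the start site were at hand for 6 members, *Cd36*, *Fabp3*, *Plin2*, *Pparg*, *Cpt1a* and *Acsl1*, with 9 windows in all. This repeat (AGGTCA, any 1 base, AGGTCA) was searched on both strands with at most 2 mismatches over its 12 fixed bases. It matched in 2 of the 9 windows, in *Plin2* and *Cd36*, beside 3.86% of all 32851 promoter windows of the same length. Both are shown because they hold the only matches among the members. The sequences are from RefSeq on GRCm38.p6, written 5′ to 3′ on the strand of the gene, with the match in capitals. The *Plin2* stretch is chr4:86670242-86670309 on the minus strand, with its match beginning 225 bases before the start site, and the *Cd36* stretch is chr5:17835917-17835989 on the minus strand, with its match beginning 63 bases before it. Both matches lie on the strand opposite to the gene and have 2 mismatches.
Plin2: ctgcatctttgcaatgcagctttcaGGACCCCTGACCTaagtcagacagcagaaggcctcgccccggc
Cd36: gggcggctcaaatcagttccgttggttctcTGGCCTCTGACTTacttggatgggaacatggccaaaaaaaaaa
*Plin2* and *Cd36* did not share a pattern over the lines, since *Plin2* was brighter and *Cd36* dimmer in both sublines than in Colon26 cells. Whether any factor binds either stretch was not measured.

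Other genes of the same pathways were taken from 9 lists, with 117 genes on the array. Against both other lines, 91 list genes gave a value, and LuM1 cells were higher in 4 of them and lower in 5, beside the 7.33% and 4.03% over all genes. The 4 higher genes were *Lipa*, *Acad10*, *Acsl6* and *Mogat2*, and the 5 lower genes were *Angptl4*, *Acot1*, *Acot2*, *Klf15* and *Acox2*. The call of *Acox2* was lost in the authors' processed values, under normexp correction and with its probe brightest in LuM1 cells. LuM1 over Colon26 had 9 higher and 7 lower of 88 genes, beside 12.9% and 11.7% over all genes, with a median log2 ratio of 0.10. LuM1 over NM11 had 10 higher and 6 lower of 90 genes, beside 11.1% and 8.5%, with a median of 0.14. NM11 over Colon26 had 14 higher and 6 lower of 90 genes, beside 8.17% and 7.74%, with a median of 0.02. *Fabp4* had a higher ratio of LuM1 over Colon26 than every one of these genes measured on both arrays, of which the highest was 3.51.

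Among relatives of *Cd36*, *Lpl* and the FABP genes, 19 genes of uptake and intracellular transport were on the array and 10 gave a value between LuM1 and Colon26 cells. Of these, 0 were higher and 2 were lower, *Angptl4* and *Lipc*, beside 12.9% and 11.7% over all genes. *Angptl4*, which encodes a secreted inhibitor of lipoprotein lipase and is a known PPAR target, read 11247 in Colon26 cells, 3930 in LuM1 cells and 15967 in NM11 cells. It was 2.86-fold lower in LuM1 cells than in Colon26 cells and 4.06-fold lower than in NM11 cells. Hepatic lipase, *Lipc*, read 240 in Colon26 cells and was not well above background in the sublines, but 12 of 71 spots around it were bright on the Colon26 array alone, or 16.9%, beside 1.89% over the array. None of *Fabp1*, *Fabp2*, *Fabp6*, *Fabp7*, *Fabp9* and *Fabp12* was well above background on any array. *Fabp5*, *Fabp9* and *Fabp12* lie near *Fabp4* on the chromosome, and these neighbours were looked up after the values were seen. Of the 5 named genes on either side of *Fabp4*, *Impa1* was measured in all lines at 1724, 2055 and 2874 in Colon26, LuM1 and NM11 cells, and *Zfand1* at 1592, 1848 and 1593. *Pmp2*, which encodes another FABP, read 477 in Colon26 cells and was not well above background in the sublines, with 18 of 117 spots around it bright on the Colon26 array alone, or 15.4%. Neither *Impa1* nor *Zfand1* passed 2-fold between any lines, and the other 7 of these 10 neighbours, *Fabp5*, *Fabp9* and *Fabp12* included, were not well above background on any array and gave no ratio.

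Of the 6 relatives of *Acsl1* on the array, 5 gave a value. In LuM1 cells 1 was higher and 0 were lower than in both other lines, beside 7.33% and 4.03% over all genes. *Acsl6* read 219 for LuM1 and 107 for NM11 and was not well above background in Colon26 cells, so that LuM1 cells were at least 8.30-fold above Colon26 cells and 2.04-fold above NM11 cells. Its second probe was not well above background on any array. *Acsbg1* read 1012, 712 and 311 in Colon26, LuM1 and NM11 cells and was 3.25-fold lower in NM11 cells than in Colon26 cells.

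In triglyceride synthesis, the list of *Dgat1*, 15 genes gave a value between LuM1 and Colon26 cells. Of these, 2, *Dgat2* and *Mogat2*, were higher in LuM1 cells and 0 lower, beside 12.9% and 11.7% over all genes. *Dgat2*, which encodes the second diacylglycerol acyltransferase, read 103 in Colon26 cells, 1180 in LuM1 cells and 1218 in NM11 cells. It was 11.4-fold higher in LuM1 cells and 11.8-fold higher in NM11 cells than in Colon26 cells, while *Dgat1* was under 2-fold in both. The log2 ratio of *Dgat2* between LuM1 and NM11 cells was -0.05 ± 0.20, positive under 5 of 7 other scalings or background corrections. *Mogat2*, a monoacylglycerol acyltransferase gene known from the intestine, read 53.7 in LuM1 cells and was not well above background in the other lines, at least 2.03-fold over Colon26 cells and at least 2.75-fold over NM11 cells. LuM1 over NM11 had 5 higher (*Gpat2*, *Lpin2*, *Lpin3*, *Mogat1*, *Mogat2*) and 0 lower of 15 genes, beside 11.1% and 8.5% over all genes. Over 7 other scalings or background corrections, *Gpat2* fell as low as 1.87-fold and *Mogat1* 1.37-fold, while *Lpin2* and *Lpin3* stayed past 2-fold. NM11 over Colon26 had 3 higher (*Dgat2*, *Agpat4*, *Lpin1*) and 4 lower (*Gpat2*, *Agpat1*, *Lpin2*, *Lpin3*) of 14, beside 8.17% and 7.74%. Over the same 7 alternatives *Agpat4* and *Lpin1* fell as low as 1.51-fold. The log2 ratios of *Lpin2* and *Lpin3* shrank as far as -0.96 and -0.97, short of 2-fold, while *Dgat2*, *Gpat2* and *Agpat1* stayed past it. *Lpin3*, a phosphatidate phosphatase gene, read 219, 244 and 79.6 in Colon26, LuM1 and NM11 cells, and *Gpat2*, a glycerol-3-phosphate acyltransferase gene, read 310.1, 184 and 70.7, so that both were lowest in NM11 cells.

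Lipid droplet protein genes, the list of *Plin2*, had 0 higher and 0 lower of 6 between LuM1 and each other line, and 1 higher, *Plin4*, of 6 between NM11 and Colon26 cells. Over 7 other scalings or background corrections *Plin4* fell there as low as 1.52-fold. Over all genes 12.9% were higher and 11.7% lower for LuM1 over Colon26, and 11.1% and 8.5% for LuM1 over NM11. The shares for NM11 over Colon26 were 8.17% and 7.74%. *Plin1* and *Cidec*, known from adipocyte droplets, and *Plin5* were not well above background on any array. Of the lipolysis genes, *Lipa*, which encodes lysosomal acid lipase, read 355 in Colon26 cells, 2762 in LuM1 cells and 923 in NM11 cells. It was 7.78-fold higher in LuM1 cells than in Colon26 cells and 2.99-fold higher than in NM11 cells, the same order of lines as *Fabp4*. *Pnpla2*, which encodes adipose triglyceride lipase, read 1952, 2004 and 1308.

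All 23 genes of mitochondrial oxidation other than *Cpt1a* were measured on all 3 arrays. LuM1 over Colon26 had 1 higher, *Acad10*, and 1 lower, *Eci1*, of 23, beside 12.9% and 11.7% over all genes. LuM1 over NM11 had 2 higher, *Acad10* and *Acad11*, and 0 lower, beside 11.1% and 8.5%. NM11 over Colon26 had 1 higher, *Decr1*, and 0 lower, beside 8.17% and 7.74%. The median log2 ratios of the list were 0.10, 0.15 and -0.05 in these comparisons. *Acad10*, an acyl-CoA dehydrogenase gene, read 220 in Colon26 cells, 506 in LuM1 cells and 181 in NM11 cells. The relatives of *Cpt1a* stayed within 2-fold between all lines, *Cpt1b* at 37.9, 46.8 and 37.7, *Cpt1c* at 549.6, 308 and 387, and *Cpt2* at 2692, 3256 and 3314 in Colon26, LuM1 and NM11 cells. In peroxisomal oxidation, *Acox2*, which acts on branched chains, was lower in LuM1 than in Colon26 cells. It read 45.0, 7.18 (not well above background) and 111 by its brighter probe. The second *Acox2* probe read 41.1 in Colon26 cells and was not well above background in either subline, so that the probes disagreed on NM11 cells.

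**Figure D4:**
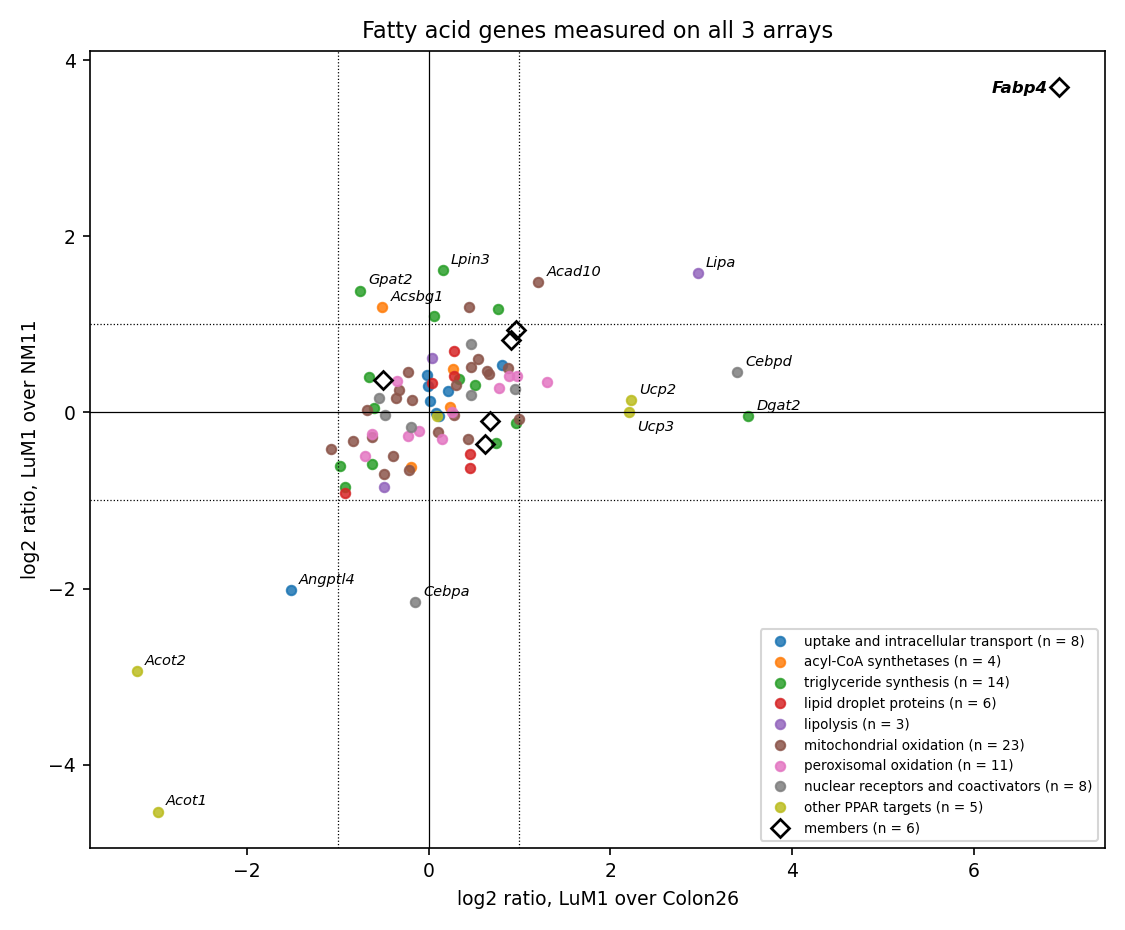
Log2 ratio of LuM1 over NM11 against that of LuM1 over Colon26 for the 6 members (diamonds) and the genes of 9 pathway lists (dots coloured by list) that were well above background on all 3 arrays, with dotted lines at 2-fold. *Fabp4* lies apart at 6.93 and 3.70, *Lipa* and *Acad10* are the list genes past 2-fold on both axes above, *Angptl4*, *Acot1* and *Acot2* those below, and genes known only as bounds are not drawn.

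Of 11 partners and relatives of *Pparg*, 8 gave a value between LuM1 and Colon26 cells. Of these, 1, *Cebpd*, was higher and 0 were lower, beside 12.9% and 11.7% over all genes. *Rxra*, a retinoid X receptor gene, read 12154, 16773 and 9824 in Colon26, LuM1 and NM11 cells by its brighter probe and 98.7, 111 and 135 by the other, so that the probes disagreed on the order of the sublines. *Ppard* read 1131, 1565 and 1362, and neither gene passed 2-fold between any lines. *Ppara* was not well above background on any array. *Cebpd* and *Cebpa* encode C/EBP factors that act with PPARγ in adipocyte differentiation. *Cebpd* read 4673 in Colon26 cells, 49178 in LuM1 cells and 35705 in NM11 cells, 10.5-fold and 7.64-fold higher in the sublines. *Cebpa* read 88.1, 79.5 and 355 and was highest in NM11 cells, 4.02-fold over Colon26 cells.

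Against both other lines, 7 other known PPAR targets gave a value. In LuM1 cells 0 were higher and 3, *Acot1*, *Acot2* and *Klf15*, were lower, beside 7.33% and 4.03% over all genes. NM11 over Colon26 had 4 higher and 0 lower of 7, beside 8.17% and 7.74%. LuM1 over Colon26 had 2 higher and 3 lower of 6, beside 12.9% and 11.7%. *Acot1* read 3871, 491 and 11367 in Colon26, LuM1 and NM11 cells, and *Acot2* read 4067, 439 and 3364. Both encode acyl-CoA thioesterases and are near-identical copies, so a probe of one may also read the other and their values are uncertain as single genes. *Klf15*, a transcription factor gene, read 72.2 for Colon26 and 198 for NM11 and was not well above background in LuM1 cells, at least 3.59-fold and at least 9.86-fold lower there. *Ucp2* read 254, 1186 and 1076 and *Ucp3* read 264, 1216 and 1213, so that these uncoupling protein genes were higher in both sublines than in Colon26 cells by 4.24-fold to 4.67-fold. *Pdk4* and *Adipoq* were not well above background on any array.

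The genes whose pattern was nearest to that of *Fabp4*, by the distance of the log2 ratios of LuM1 and of NM11 over Colon26 among 12245 genes measured on all 3 arrays, were *Sele*, *Ass1* and *Rundc3a*. *Sele*, E-selectin, read 34.6, 4198 and 171 in Colon26, LuM1 and NM11 cells, at a distance of 0.93. *Ass1*, argininosuccinate synthase, read 109, 9081 and 1760, at a distance of 0.95. *Rundc3a* read 44.4, 2422 and 306, at a distance of 1.24. With 3 arrays the likeness rests on 2 ratios.

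*Fabp4* is known from adipocytes, macrophages and endothelial cells, so markers of these cell types are given beside it. In bulk RNA, fewer cells of a type and less RNA per cell cannot be told apart. Of 10 adipocyte markers, 1 was well above background in Colon26 cells and 2 in LuM1 and in NM11 cells. The signals of those well above background summed to 225, 221 and 245, of which *Lep*, leptin, made up 225, 193 and 216. *Adipoq*, *Plin1*, *Cidec* and *Retn* were not well above background on any array. Of 10 macrophage markers, 4, 5 and 4 were well above background in Colon26, LuM1 and NM11 cells, with signals that summed to 7034, 17046 and 6213. *Cd68* read 172, 5251 and 299, *Cd14* read 1153, 4175 and 988, and *Lyz2* was well above background in LuM1 cells alone, at 112. These 3 markers, like *Fabp4*, were more than 2-fold brighter in LuM1 cells than in the other lines, whereas *Itgam* and *Csf1r* were not. That is 3 higher and 0 lower of 5 macrophage markers that gave a value, beside 7.33% and 4.03% over all genes. *Itgam*, which made up most of the summed signal in Colon26 cells, read 5027, 6818 and 4251, and *Csf1r* read 682, 691 and 675. *Ptprc*, *Adgre1*, *Cd163* and *Mrc1*, which define leukocytes and macrophages, were not well above background on any array.

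Of 10 endothelial markers, 2 were well above background on each array, with signals that summed to 137, 1024 and 573. Against both other lines, 0 of these 2 were higher and 0 lower in LuM1 cells, beside 7.33% and 4.03% over all genes. *Egfl7* read 85.5, 971 and 494, in the same order of lines as *Fabp4*. *Pecam1* read 51.3, 53.0 and 78.3, brightest in NM11 cells and within 2-fold between all lines, while *Cdh5*, *Kdr*, *Tek* and *Tie1* were not well above background on any array. The part of these markers in the *Fabp4* difference was not tested. The lines are labelled as colon adenocarcinoma, an epithelial tumor, yet of 12 epithelial and colon markers only 4, 5 and 4 were well above background in Colon26, LuM1 and NM11 cells. *Cdh1*, *Krt18*, *Krt19* and *Vil1* were not well above background on any array, and *Epcam* was so in LuM1 cells alone, at 28.0. The 4 measured in all lines had different patterns. *Krt8*, a keratin gene, read 28.9, 108 and 37.1 and was more than 2-fold brighter in LuM1 than in Colon26 and NM11 cells. *Krt20*, an intestinal keratin gene, read 651, 54.5 and 157 and was lowest in LuM1 cells, 11.9-fold under Colon26 cells. Against both other lines, 1 of 5 markers with a value was higher and 1 lower in LuM1 cells, beside 7.33% and 4.03% over all genes. *Cdx2*, an intestinal transcription factor gene, read 443, 232 and 167, and *Cldn7* read 91.4, 58.1 and 93.6.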

How the data were processed

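Gene expression was measured with 1 single-colour array (Cy3) per line, in 3 samples. The authors deposited intensity values per spot from Agilent Feature Extraction 11.5.1.1, background-subtracted and detrended within each array and not scaled between arrays, with the software's error and other flags of 0 or 1 for outliers, saturation and detection. They also deposited a table of processed intensity values, each the scanner value multiplied by an array-wide constant (Colon26 0.654, LuM1 0.829, NM11 0.706), by a method not given in the sources used here. The design uses an older assembly than the naming table, so no coordinates are given for probes, and those of promoter stretches are from RefSeq (GRCm38.p6).

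Control spots and outlier spots (137, 74 and 99 on the Colon26, LuM1 and NM11 arrays) were left out, repeated spots of a probe were averaged, and each array was scaled from its 75th percentile (581.1, 625.1 and 551.5) to 585.1. Of 56605 probes, 32994 (58.3%) were named through RefSeq accessions (GRCm38.p6). A gene was represented by its probe of highest mean log2 signal over the arrays. Ratios were taken on the log2 scale with the scanner error propagated, and a probe not well above background entered as a bound. Spots that are not significantly above background hold the software's error in place of a signal, so their values carry no level (100.0% of 18703, 17477 and 17375 such spots, within 1%). Repeated spots varied by a median SD of 0.037 to 0.041 (log2). The number of arrays limits the precision, and no test was run.

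The members and the lists were chosen with earlier results of these data known. The text names all members, pathway genes past 2-fold against both other lines in LuM1 cells, the 3 largest measured ratios of pathway genes in each direction of a comparison, and the 3 genes nearest to the member with the widest range. Other genes are named to show a list's remaining members, and those were picked after their values were seen. Alternatives were no scaling, scaling to the median, *Hprt* or E1A spike-in controls, quantile normalization, the authors' processed values, normexp correction with an offset of 50 (run on median brightness), 2 other detection rules, 2 other choices of probe and a 4-fold threshold. Scripts were tested on simulated data. Python 3.11.15 (numpy 2.4.6, pandas 2.3.3, scipy 1.17.1, matplotlib 3.10.9) and R 4.3.3 with limma 3.58.1 were used. Protein sequences of the FABP genes were not analysed here. Some results on single pathway genes are not reported here.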

Additional observations from a re-analysis of the deposited data

How the results depend on the processing

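Differences have no replicate check, and no library could be left out, because each line had 1 array. No paired analysis was possible because each line had 1 array. Under the 12 alternatives, 72 of 96 counts stayed within 1.5 times the count given, 24 moved, and *Fabp4* was called in LuM1 cells against both other lines under each. Scaling shifted all log2 ratios by -0.49 to 0.59. In LuM1 over Colon26, the members called higher were 3 without scaling and with *Hprt* scaling (*Fabp4*, *Dgat1*, *Pparg*), 5 in the authors' processed values (with *Acsl1* and *Plin2*) and 2 with spots significantly above background or with no filter (*Fabp4*, *Fabp5*), and 1 was lower (*Cd36*) under those last settings and under quantile normalization. In LuM1 over NM11, 4 were higher without scaling and with *Hprt*, E1A or the authors' values (*Fabp3*, *Fabp4*, *Dgat1*, *Pparg*), and 4 with spots significantly above background or with no filter (*Lpl*, *Fabp3*, *Fabp4*, *Fabp5*). In NM11 over Colon26, 2 were higher in the authors' values (*Fabp4*, *Acsl1*), 1 was lower without scaling (*Fabp3*), 3 with *Hprt* or E1A scaling (*Cd36*, *Fabp3*, *Cpt1a*), and 2 with spots significantly above background or with no filter (*Cd36*, *Fabp3*). Without the stricter filter, dim spots hold an error in place of a signal, so calls of *Lpl*, *Fabp5* and *Cd36* there rest on that. Of the 4 pathway genes above both other lines in LuM1 cells, 2 were left under quantile normalization (*Lipa*, *Acad10*), 1 under normexp correction (*Lipa*) and 0 at 4-fold, where 2 of the 5 lower genes were left (*Acot1*, *Acot2*). *Acox2* was not among the lower genes, 4 of which were left, in the authors' processed values, under normexp correction and with the probe brightest in LuM1. Over all genes, the share of calls that were higher moved from 52.5% to 77.7% in the authors' values for LuM1 over Colon26 (3037 higher and 874 lower, in place of 1855 and 1679). For LuM1 over NM11 it moved from 56.6% to 68.6% without scaling, 77.2% with E1A, 81.4% in the authors' values and 87.8% with *Hprt* (3581 and 498, in place of 1599 and 1225), and for NM11 over Colon26 from 51.3% to 29.0% with E1A and 20.1% with *Hprt* (686 and 2727, in place of 1152 and 1092). The cause of these shifts was not tested.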
